A study of Mus musculus with 8 samples.

Results

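To describe fat cell lipid metabolism in the skin of mice lacking TBX20 in keratinocytes, 35 genes of adipocyte lipolysis and lipid synthesis were followed in an RNA sequencing (RNA-seq) table of 18901 mouse genes. The genes were taken by symbol from a list of fat cell hormones, lipid droplet proteins, lipases, transporters, regulators and synthesis enzymes. All 35 were in the table. No value of these genes was a rule of entry, but the list was chosen with earlier results of these data known. Cheek skin was sequenced in 2 genotypes, with 4 libraries of TBX20fl/fl;K14-Cre (tbx20 k14 conditional knockout, cKO) and 4 of TBX20fl/fl (tbx20 flox/flox, control). Per the study's methods, the mice were female and 7 weeks old. Both genotypes carried the floxed alleles, and 10 µg of brain natriuretic peptide (BNP) was injected into 1 cheek with saline and BSA as its carrier. Behaviour was then recorded for 30 min, and cheek tissue was collected 5 h after the recording. The labels name skin and genotype alone, and a library from vehicle-injected or untreated skin was not analysed here, so every value below describes genotype and none describes the effect of BNP. The K14 promoter drives Cre in keratinocytes of the basal epidermis, so fat cells of the cKO skin were not the intended site of deletion. The K14-Cre and floxed parents came from different C57BL/6 substrains. The labels do not say whether each library is a single mouse. The paper's heatmap legend gives its columns as 4 mice per strain. Each library is treated as 1 mouse here, and p-values measure the spread between these libraries.

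Adipocytes store fatty acids as triglyceride inside a lipid droplet and release them by lipolysis, in which adipose triglyceride lipase (Pnpla2) and hormone-sensitive lipase (Lipe) act in sequence. Catecholamines drive lipolysis through beta-adrenergic receptors and cyclic AMP, and natriuretic peptides drive it through the receptor NPR1, cyclic GMP and cGMP-dependent protein kinase. Dermal fat lies beneath the follicles, and sebaceous glands and muscle also use part of this machinery. The transcript of the deleted gene itself gave no check of the labels, since Tbx20 had 0 to 2 counts per library in cKO and 0 to 3 in control skin.

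No gene of the set passed the genotype test. In the edgeR quasi-likelihood test 0 of 34 tested genes had an adjusted p under 0.05, beside 0 of 17124 genes in all (0%). An unadjusted p under 0.05 was reached by 2 of the 34 (5.88%), against 1431 of all genes tested (8.36%). The lowest adjusted p of any gene in that test was 0.498, so each edgeR p given below for a single gene is unadjusted and did not pass the correction. The 2 genes were Adrb3, the fat cell beta-3 adrenergic receptor, which was higher in cKO skin (1 of 34, against 2.45% of all genes on that side), and Retn, which encodes the fat cell hormone resistin and was lower (1 of 34, against 5.91%). The DESeq2 Wald test also called 0 of the 34 after adjustment, with 10 genes called in the whole table (0.0609%). The median log2 fold change of the 34 genes was 0.20 for cKO minus control, with 23 above 0 and 11 below. Over all genes the median was 0.03, and 52.5% were above 0. In bulk skin, fewer cells of a type and less RNA per cell cannot be told apart.

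Library totals were 16056282 to 19880654 estimated counts, and the lowest belonged to control 2. That library stood apart from the others in composition. Its TMM scaling factor was 0.735 against 1.007 to 1.075 in the other 7, and it held the lowest FPKM (fragments scaled to transcript length and library depth) of all mice for 23 of the 34 genes and the highest for 6. The 6 were Adipoq, Retn, Cidea, Cd36, Fabp4 and Thrsp. Its deviation from the median of the other 7 libraries, of both genotypes, was taken in log2 CPM (counts scaled to library depth). That deviation followed transcript length across the 34 genes (Spearman's rho = -0.863) as it did across 13284 genes of the table (rho = -0.782). Genes are not independent replicates, and all points share these libraries. The 10 shortest transcripts of the set (0.54 to 1.86 kb) had a median deviation of 0.69 in control 2, and the 10 longest (4.26 to 9.35 kb) had -1.84. Control 3 leaned the same way, with rho = -0.755 and a median of -0.49 in the longest 10.

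The genotype differences of the set followed length as well. Across the 34 genes the log2 fold change had a rho of 0.769 with transcript length, with a median of -0.26 in the shortest 10 transcripts, 9 of them below 0, and of 0.38 in the longest 10, 9 of them above 0. Without control 2, rho was 0.347 and the 2 medians were -0.05 and 0.11. The median of all 34 genes was then 0.04, with 0.01 over all genes, and 1 of 34 had an unadjusted p under 0.05 (7.69% of all genes). No adjusted call was made among the 34 or in the whole table without this library (0%). When a smooth trend with length was taken out of every library by an offset, rho was -0.08, the median of the set was 0.13, and 2 of 34 had an unadjusted p under 0.05 (8.86% of all genes). With the replicate number as a block, 4 of 34 reached it (Adrb3, Retn, Thrsp and Agpat2), against 10.1% of all genes. Scaling by total count in place of TMM moved the median of all genes to 0.17 and that of the set to 0.32. With that scaling 28 of 34 were above 0, against 65.7% of all genes.

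**Figure D1:**
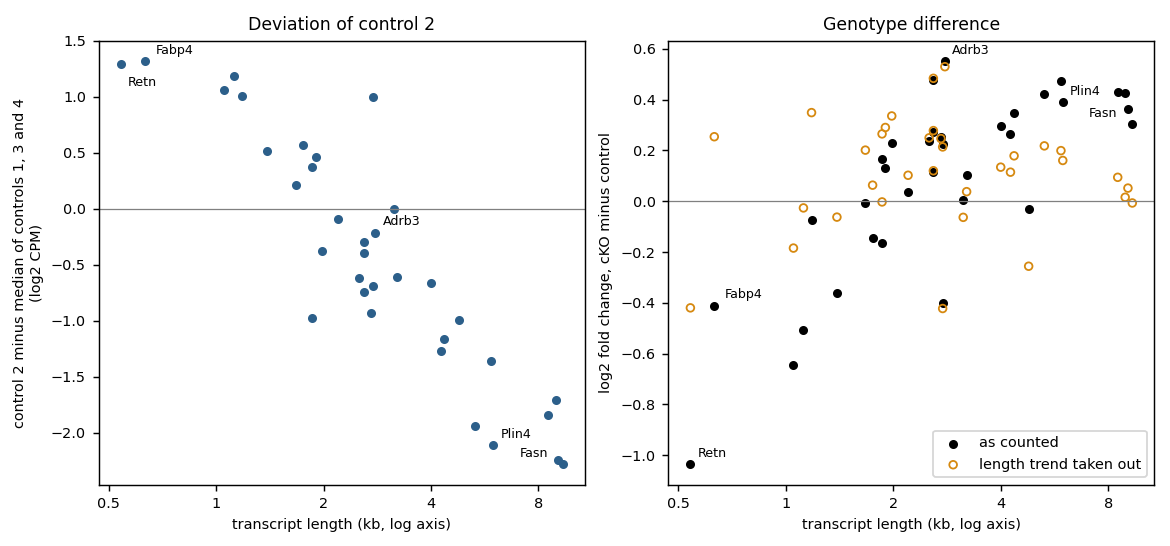
The left panel plots, for each of 34 genes, control 2 minus the median of controls 1, 3 and 4 in log2 CPM against transcript length in kb on a log axis. The right panel plots the log2 fold change, cKO minus control, against the same axis, as counted (filled) and with the length trend taken out (open), and the rise from short to long transcripts seen in the filled points (rho = 0.769) is not seen in the open ones (rho = -0.08).

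The lipolysis genes held the only member whose genotypes did not overlap. Adrb3 (chr8:27225776-27230845, GRCm38.p6) measured 5.04, 6.77, 6.04 and 6.82 FPKM in cKO mice 1 to 4 and 4.03, 2.55, 4.50 and 4.13 FPKM in control mice 1 to 4. All 4 cKO values lay above all 4 control values, with means of 6.17 ± 0.832 FPKM (SD, n = 4) and 3.80 ± 0.859 FPKM (SD, n = 4). The exact two-sided permutation test over 70 assignments gave p = 0.0286, the smallest it can give, and an adjusted p of 0.388 over all genes. Of all genes with a mean of at least 0.1 FPKM, 5.45% lay wholly above control in this way and 1.92% wholly below, so that 1 and 0 of 34 genes are shares below those of the table. In counts the log2 fold change, cKO minus control and given ± SE here and for all genes that follow, was 0.55 ± 0.15, with an edgeR p of 0.00568 and an adjusted p of 0.498. It was 0.49 ± 0.13 without control 2 and 0.53 ± 0.13 with the length trend taken out. Its transcript of 2.79 kb lies in the middle of the set's lengths. Control 2 deviated there by -0.21 log2 CPM from the median of the other controls. Across all alternatives the value ran from 0.45 to 0.70, always above 0, with an unadjusted p of at most 0.0199 and an adjusted p of at least 0.114.

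**Figure D2:**
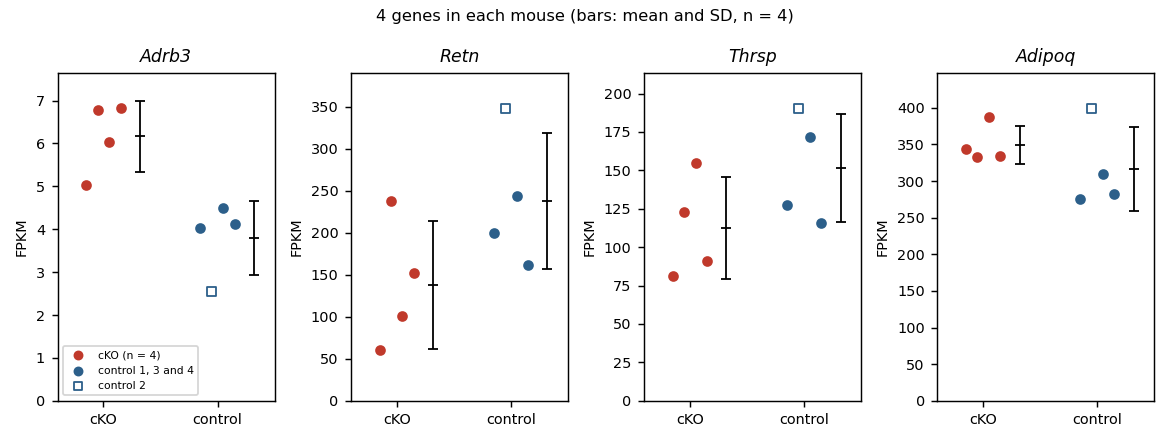
FPKM of Adrb3, Retn, Thrsp and Adipoq in each mouse, with the mean and SD of each genotype (n = 4) beside the points and control 2 as an open square. The cKO points of Adrb3, 5.04 to 6.82 FPKM, all lie above the control points, 2.55 to 4.50 FPKM, and those of the other 3 genes overlap with control.

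The lipases themselves gave small differences. Pnpla2, the most abundant gene of this role, measured 145, 109, 184 and 133 FPKM in cKO mice and 149.9, 53.1, 108 and 126 FPKM in control mice. The 4 cKO values and 3 of the control values shared a range, and control 2 lay far below. Its log2 fold change was 0.27 ± 0.24 (SE) in all mice and 0.11 ± 0.19 without control 2. Lipe, the hormone-sensitive lipase, spanned 52.3 to 75.6 FPKM in cKO and 20.1 to 67.5 FPKM in control skin (log2 fold change 0.26 ± 0.26, and 0.06 ± 0.16 without control 2). The glycerol channel Aqp7, through which glycerol leaves the fat cell, spanned 4.73 to 9.68 FPKM and 3.51 to 7.19 FPKM, at 0.23 ± 0.26, and gave 0.03 without cKO 3. Acvr1c encodes ALK7, an activin receptor known to hold lipolysis back, and spanned 1.97 to 3.85 FPKM and 0.62 to 3.36 FPKM, at 0.43 ± 0.38. Acvr1c gave 0.16 ± 0.24 without control 2 and 0.02 ± 0.22 with the length trend taken out. All 5 genes of this role had fold changes above 0 in all mice, without control 2 and with the length trend taken out. Their median was 0.27 in all mice and 0.16 without control 2. Of all genes, 52.5% were above 0 in all mice, 52.4% without control 2 and 53.0% with the length trend taken out.

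Promoter sequence was read for 26 of the 35 genes from a table of RefSeq promoters on GRCm38.p6, which gave 36 windows of 300 bases (250 before and 50 after each annotated start). No window was read for Adrb3, Dgat1, Dgat2, Scd1, Slc2a4, Lpl, Fabp4, Cidea and Gpd1. T-box proteins, the family of TBX20, recognise sites of the form AGGTGTGA. A search of both strands found it in windows of 3 of the 26 genes, Aqp7, Cidec and Pparg, or 4 of 36 windows, since the 2 windows of Aqp7 share 1 match. Of all 32851 RefSeq windows, 1.28% held it. The stretches are shown because they place the motif of the deleted factor's family in this set, with the match in capitals. They lie at chr4:41048173-41048232 (minus strand), chr6:113434832-113434891 (minus strand) and chr6:115362099-115362136 (plus strand), and the match begins at -70, -101 and -246 from an annotated start.
Aqp7: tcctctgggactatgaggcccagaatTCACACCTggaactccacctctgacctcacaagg
Cidec: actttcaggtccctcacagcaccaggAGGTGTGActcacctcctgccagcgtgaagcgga
Pparg: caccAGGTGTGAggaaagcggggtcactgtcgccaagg
In Aqp7 the match reads as TCACACCT because it lies on the opposite strand. None of these 3 genes had an unadjusted p under 0.05 between genotypes. A C/EBP motif, TTGCNNAA, lay in 4 of the 36 windows, those of Cidec, Lep, Plin1 and Pparg, against 10.8% of all windows. The form PPAR-gamma binds was searched as a direct repeat of AGGTCA with 1 base between the copies and at most 2 mismatches. It lay in 3 of the 36 windows, those of Aqp7 and Cd36, against 3.86% of all windows. The sterol regulatory motif TCACNCCAC was found in none of the 36 windows, against 1.24% of all. A match is a run of letters and not a measured binding site.

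Among the secreted hormones, Retn (chr8:3655770-3659818) measured 61.0, 237, 101 and 152 FPKM in cKO mice and 199, 348, 244 and 161 FPKM in control mice. The ranges overlapped through cKO 2 alone, cKO 1 was the lowest of all mice, and control 2 was the highest. Each cKO mouse was below the control mouse of the same number. The log2 fold change was -1.04 ± 0.45 (SE), with an edgeR p of 0.0472 and an adjusted p of 0.498, and the exact two-sided permutation test of FPKM gave p = 0.114. It was -0.60 ± 0.39 without control 2 (edgeR p of 0.154) and -0.42 ± 0.29 with the length trend taken out (edgeR p of 0.177). At 0.54 kb this was the shortest transcript of the set, and control 2 deviated there by 1.29 from the median of the other controls. With the replicate block the value was -1.07 ± 0.27 (edgeR p of 0.00616, adjusted p = 0.405), and with the block and the length trend together -0.50 ± 0.33 (edgeR p of 0.172).

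Adipoq, which encodes adiponectin, measured 343, 333, 388 and 334 FPKM in cKO mice and 275, 399, 309 and 282 FPKM in control mice. The 4 cKO values lay above controls 1, 3 and 4, while control 2 was the highest of all 8. On the count scale the log2 fold change was -0.07 ± 0.24 in all mice and 0.23 ± 0.11 without control 2 (edgeR p of 0.068). With the length trend taken out it was 0.35 ± 0.11 (edgeR p of 0.0112, adjusted p at least 0.457 in every alternative). Without control 2, Adipoq and Adrb3 were the 2 of 34 genes that lay wholly above control in FPKM (5.65% of all genes), and 0 of 34 lay wholly below (2.57%). Lep, which encodes leptin, the satiety hormone, spanned 36.9 to 57.9 FPKM in cKO and 20.1 to 44.0 FPKM in control skin. Its log2 fold change was 0.10 ± 0.21, and -0.02 ± 0.17 without control 2.

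The lipid droplet proteins spread on both sides of 0. Cidec, which fuses droplets into larger ones and was the most abundant of the 5, measured 302, 178, 395 and 213 FPKM in cKO mice and 252, 208, 286 and 232 FPKM in control mice. The cKO mice held both the lowest and the highest values, and the log2 fold change was -0.01 ± 0.26, or 0.04 ± 0.26 without control 2. Cidea, a related protein also made in sebaceous and brown fat cells, spanned 146 to 259 FPKM in cKO and 130.2 to 316 FPKM in control skin. Its value of -0.51 ± 0.37 was -0.09 ± 0.27 without control 2. Plin1, which coats the droplet and gates access of the lipases, spanned 63.9 to 81.6 FPKM in cKO and 24.7 to 75.3 FPKM in control skin, where control 2 alone lay under all cKO mice. Plin1 gave 0.16 ± 0.23 in all mice and -0.03 ± 0.11 without control 2. Plin4, another coat protein with a transcript of 5.97 kb, spanned 43.8 to 65.3 FPKM and 9.32 to 62.7 FPKM. The value of 9.32 FPKM in control 2 set its lower end, and the log2 fold change was 0.39 ± 0.41 with and 0.09 ± 0.19 without that library. Plin5, the perilipin of oxidative tissue, was low in both genotypes, at 2.05 to 6.37 FPKM and 2.57 to 3.81 FPKM, and gave 0.13 ± 0.35, or 0.23 ± 0.37 without control 2.

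**Figure D3:**
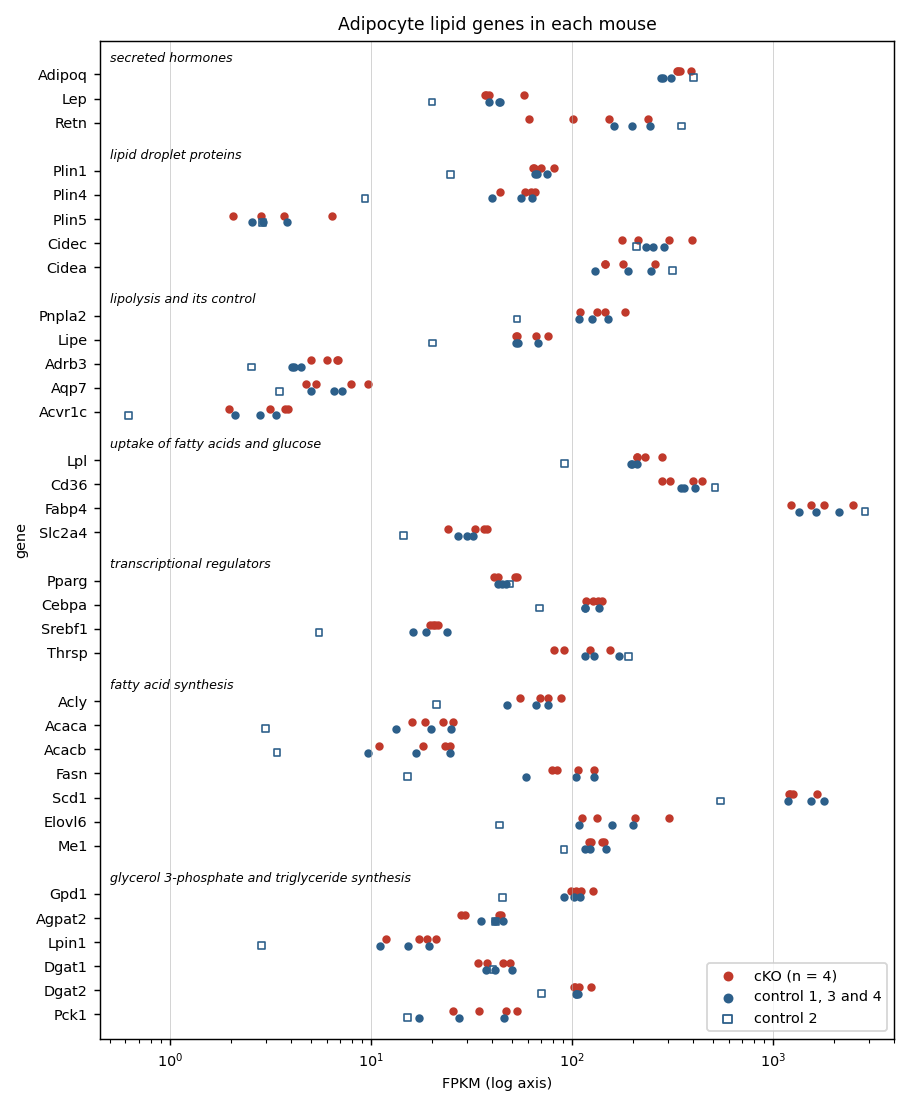
FPKM on a log axis for 34 genes in each mouse, grouped by role, with cKO in red, controls 1, 3 and 4 in blue and control 2 as open squares. The open squares lie left of all other points for 23 genes and right of them for 6, and red and blue points overlap for every gene except Adrb3 and, without the open square, Adipoq.

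Uptake genes included the most abundant transcript of the set. Fabp4, the fatty acid binding protein of adipocytes and capillary endothelium, measured 1787, 1545, 2502 and 1224 FPKM in cKO mice and 1344, 2855, 2131 and 1623 FPKM in control mice. Its mean over 8 mice, 1876 FPKM, ranked 31 among all genes in the table. The ranges overlapped, with cKO 4 below every control mouse and control 2 above every cKO mouse, and the log2 fold change of -0.41 ± 0.37 was 0.01 ± 0.26 without control 2. Cd36, a fatty acid transporter, spanned 279 to 443 FPKM in cKO and 348 to 512 FPKM in control skin (-0.40 ± 0.28, and -0.10 ± 0.19 without control 2). Lpl, which frees fatty acids from circulating lipoproteins, spanned 209.6 to 279 FPKM and 91.9 to 209.7 FPKM. Only cKO 1 lay under the highest control, and the exact two-sided permutation test gave p = 0.0571. Lpl gave 0.30 ± 0.20 in all mice and 0.16 ± 0.13 without control 2, which had 91.9 FPKM against 197 to 209.7 in the other controls. Slc2a4, which encodes the insulin-responsive glucose transporter GLUT4 and is also made in muscle, spanned 24.1 to 37.6 FPKM and 14.5 to 32.1 FPKM, at 0.24 ± 0.20, or 0.11 ± 0.15 without control 2. With the block and the length trend together Slc2a4 gave 0.26 ± 0.086 (edgeR p of 0.0221, adjusted p = 0.457).

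Of the regulators, Pparg, the master factor of fat cell differentiation, was nearly level, at 40.9 to 53.0 FPKM in cKO and 42.5 to 49.0 FPKM in control skin. Its log2 fold change was -0.15 ± 0.19, and 0.03 ± 0.12 without control 2. Cebpa, its partner in differentiation, spanned 118 to 141 FPKM and 68.9 to 136 FPKM, at 0.12 ± 0.16, or 0.04 ± 0.12 without control 2. Srebf1, which switches on fatty acid synthesis genes, spanned 19.6 to 21.5 FPKM in cKO skin and 5.50 to 23.8 FPKM in control skin, with control 2 at the lower end, and gave 0.26 ± 0.29, or 0.03 ± 0.13 without that library. Thrsp, a nuclear protein that follows lipogenic state and the most abundant gene of this role, measured 81.5, 123, 155 and 90.9 FPKM in cKO mice and 128, 190.4, 171 and 116 FPKM in control mice. Each cKO mouse was below the control of the same number, but the ranges overlapped. The value of -0.65 ± 0.30 (edgeR p of 0.0614, adjusted p = 0.498) became -0.61 ± 0.19 with the replicate block (edgeR p of 0.0171), -0.35 ± 0.23 without control 2 and -0.18 ± 0.19 with the length trend taken out. With the block and that trend together Thrsp gave -0.22 ± 0.13 (edgeR p of 0.146).

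Fatty acid synthesis genes were 6 of 7 above 0 in all mice, with a median of 0.35, and 4 of 7 without control 2, with a median of 0.05. Of all genes, 52.5% and 52.4% were above 0 in these fits. None of the 7 had an unadjusted p under 0.05. Scd1, the stearoyl-CoA desaturase that makes oleic acid, was second in abundance in the set and measured 1257, 1203, 1653 and 1207 FPKM in cKO mice and 1786, 545, 1184 and 1545 FPKM in control mice. Control mice held the lowest and the highest values, and the log2 fold change was -0.03 ± 0.28, or -0.22 ± 0.20 without control 2. Reads shared with its close copies Scd2, Scd3 and Scd4 may have been divided among them by the estimated counting. Fasn, the fatty acid synthase, spanned 79.0 to 129 FPKM in cKO and 15.1 to 129 FPKM in control skin, and gave 0.31 ± 0.46, or -0.01 ± 0.26 without control 2. At 9.35 kb it was the longest transcript of the set, and control 2 deviated there by -2.28 from the median of the other controls. Acaca and Acacb, the 2 acetyl-CoA carboxylases, gave 0.37 ± 0.44 and 0.43 ± 0.46 in all mice. Without control 2 they gave 0.05 ± 0.22 and 0.14 ± 0.35. With each library left out in turn Acaca ran from 0.05 to 0.68 and Acacb from 0.14 to 0.86. Acly, which supplies cytosolic acetyl-CoA, spanned 55.0 to 87.9 FPKM and 21.1 to 76.0 FPKM, at 0.35 ± 0.28, or 0.14 ± 0.19 without control 2. Elovl6, which lengthens palmitate, spanned 112 to 302 FPKM and 43.4 to 201 FPKM, at 0.47 ± 0.42, and was highest in cKO 1. Elovl6 gave 0.24 ± 0.36 without control 2 and 0.13 without cKO 1. Me1, the malic enzyme that yields NADPH, gave 0.0049 ± 0.15, or -0.0038 ± 0.13 without control 2.

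**Figure D4:**
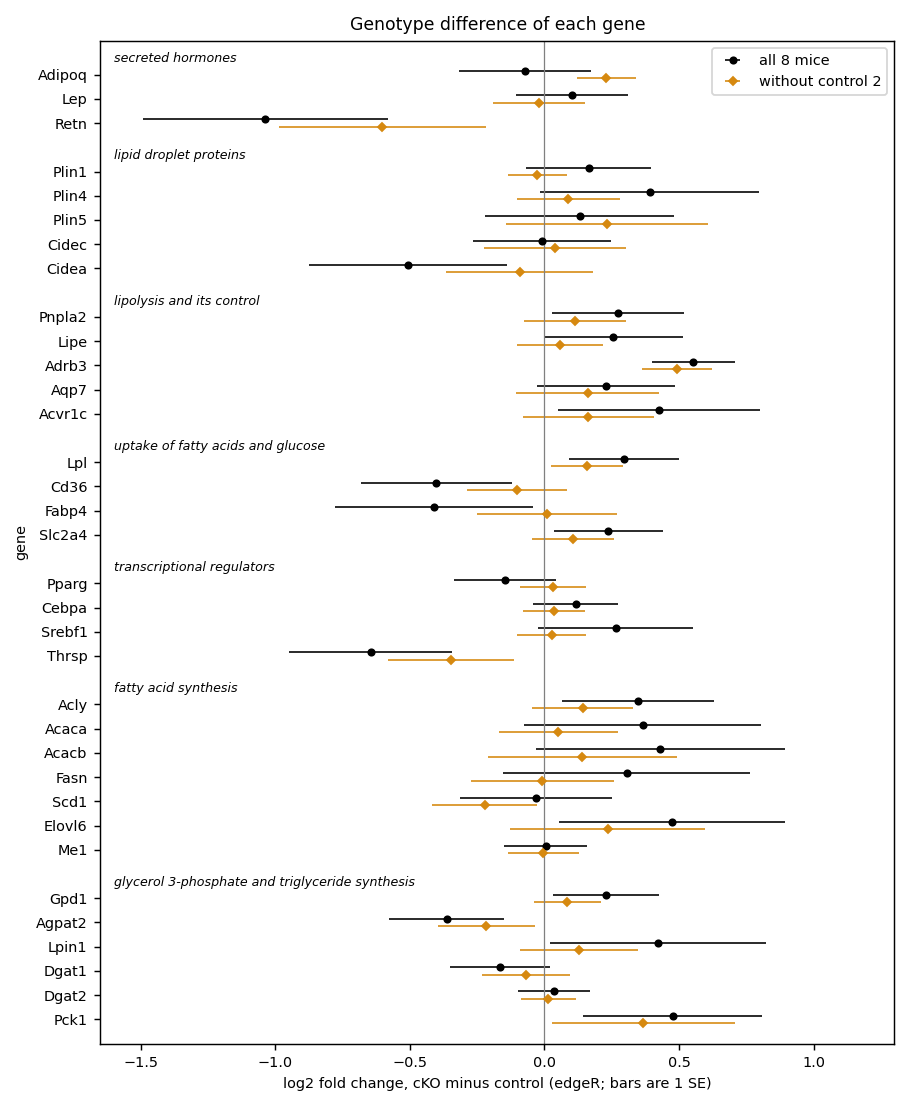
The log2 fold change, cKO minus control, of each of 34 genes with bars of 1 SE from edgeR, for all 8 mice (black circles) and without control 2 (orange diamonds). The orange points lie nearer 0 than the black ones for 30 of the 34 genes, with the median of the 34 at 0.04 against 0.20, while Adrb3 stays at 0.49 against 0.55.

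In glycerol 3-phosphate and triglyceride synthesis, Dgat2, which adds the last fatty acid, was the most abundant and measured 102, 108, 124 and 103 FPKM in cKO mice and 104, 70.6, 105 and 107 FPKM in control mice. The genotypes shared a narrow range apart from control 2, and the log2 fold change was 0.04 ± 0.13, or 0.01 ± 0.10 without that library. Dgat1, which catalyses the same step, gave -0.17 ± 0.19, or -0.07 ± 0.16 without control 2. Pck1, the cytosolic PEPCK that feeds glyceroneogenesis, spanned 25.6 to 53.0 FPKM in cKO and 15.2 to 45.9 FPKM in control skin. Its value of 0.48 ± 0.33 was 0.37 ± 0.34 without control 2, and ran from 0.30 to 0.81 with each library left out in turn. Gpd1, which makes glycerol 3-phosphate from a glycolytic intermediate, spanned 98.9 to 127 FPKM and 44.9 to 109.5 FPKM, at 0.23 ± 0.20, or 0.08 ± 0.12 without control 2. Lpin1, a phosphatidate phosphatase, gave 0.42 ± 0.40 in all mice and 0.13 ± 0.22 without control 2. Agpat2, the acyltransferase whose loss causes lipodystrophy, spanned 27.9 to 44.1 FPKM and 35.05 to 45.2 FPKM, at -0.36 ± 0.21, and reached an edgeR p of 0.0373 with the replicate block (adjusted p = 0.405). Agpat2 gave -0.22 ± 0.18 without control 2 and -0.06 ± 0.16 with the length trend taken out, and with that trend and the block together -0.08 ± 0.14 (edgeR p of 0.588). Ucp1, the uncoupling protein of brown fat, was at or near 0. It had 2, 2, 1 and 2 counts in cKO mice and 0, 1, 0 and 0 in control mice, all under the 3 counts that a count of 0 allows, so no fold change is given.

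Genes that govern lipolysis outside the set were followed from a list of 15. Of these 0 were higher and 1 lower at an unadjusted p under 0.05. That gene was G0s2, the inhibitor of adipose triglyceride lipase, which measured 13.7, 24.6, 15.7 and 17.9 FPKM in cKO mice and 25.2, 30.2, 38.8 and 20.6 FPKM in control mice. The log2 fold change of G0s2 was -0.87 ± 0.28 (edgeR p of 0.0113, adjusted p = 0.498), and with the length trend taken out -0.39 ± 0.21 (edgeR p of 0.0933). With the block G0s2 gave -0.84 ± 0.21, and with the block and that trend together -0.36 ± 0.24 (edgeR p of 0.175). The BNP receptor Npr1 measured 8.28, 4.74, 8.54 and 9.22 FPKM in cKO mice and 6.58, 1.85, 5.08 and 6.78 FPKM in control mice, and the ranges overlapped. Npr1 gave 0.51 ± 0.31 (edgeR p of 0.138), or 0.28 ± 0.22 without control 2, and each cKO mouse was above the control of the same number. With the replicate block Npr1 gave 0.55 ± 0.15 (edgeR p of 0.00936, adjusted p = 0.405). The C-type natriuretic peptide receptor Npr2 gave 0.55 ± 0.29 and the clearance receptor Npr3 gave 0.40 ± 0.26, with edgeR p of 0.0889 and 0.152. Npr2 gave 0.63 ± 0.20 with the block (edgeR p of 0.0195, adjusted p = 0.405), so that 2 of the 15 were higher and 1, G0s2, lower in the blocked fit. Without control 2, Npr2 gave 0.31 ± 0.14 and Npr3 0.20 ± 0.15. With the length trend taken out Npr1 gave 0.37 ± 0.23, Npr2 0.44 ± 0.21 and Npr3 0.10 ± 0.12. The edgeR p in that fit was 0.14, 0.0603 and 0.45. With the block and that trend together Npr1 gave 0.37 ± 0.10, Npr2 0.48 ± 0.12 and Npr3 0.09 ± 0.11. There the edgeR p was 0.00796, 0.00644 and 0.471, with an adjusted p of 0.457 for Npr1 and Npr2. Without control 2 Adora1, an adenosine receptor, was lower as well as G0s2, at -0.40 ± 0.16 (edgeR p of 0.0313), against -0.17 ± 0.30 in all mice. Prkg1, the cGMP-dependent kinase, gave 0.06 ± 0.18 (edgeR p of 0.759), -0.05 ± 0.14 without control 2 and -0.39 ± 0.18 with the length trend taken out (edgeR p of 0.0561), so the sign was not the same in all 3.

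Of 15 further genes of lipid synthesis, enzymes and regulators together, 1 was higher at an unadjusted p under 0.05 and 0 lower. It was Lpin3, a relative of Lpin1, at 0.41 ± 0.17 (edgeR p of 0.0368). With the replicate block 2 were higher, Acsl1 (0.45 ± 0.17) and Mlxipl (0.54 ± 0.21), and Lpin3 had an edgeR p of 0.0527. Without control 2 and with no block Acsl1 and Mlxipl gave 0.31 ± 0.14 and 0.26 ± 0.17. Acsl1 spanned 88.35 to 117.41 FPKM in cKO and 37.27 to 82.82 FPKM in control skin. It lay wholly above control, as did 5.45% of all genes. With the length trend taken out 1 was higher, Lpin3 (0.33 ± 0.13), and 1 lower, Acss2 (-0.32 ± 0.13, edgeR p of 0.0404), which makes acetyl-CoA from acetate. Without cKO 2 the count was 0 higher and 1 lower, Acss2 at -0.40, against 5.47% of all genes in both directions. Genes given only for their values with the block, with the length trend taken out or with a library left out were chosen after those values were seen. Of 8 brown and beige fat genes, 0 were higher and 2 lower. These were Cox8b, at -1.02 ± 0.37, and Cox7a1, at -0.86 ± 0.37, which encode respiratory chain subunits also made in muscle. Both transcripts are about 0.3 kb, and with the length trend taken out they gave -0.17 ± 0.24 and -0.0029 ± 0.25. Without control 2 the values were -0.49 ± 0.17 and -0.30 ± 0.16. With the block 0 of the 8 were lower and 1 was higher, Ppara (0.49 ± 0.20), which gave 0.06 ± 0.20 with the length trend taken out. In that length fit 0 were higher and 1 was lower, Dio2, the deiodinase that activates thyroid hormone, at -0.53 ± 0.23 (edgeR p of 0.0449) against -0.22 ± 0.34 without it. Without cKO 2, 1 of the 8 was higher and 0 lower.

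The skin held fat, and markers of other cell types varied between libraries. All 8 further adipocyte markers were detected, summing to 2998 to 4000 CPM in cKO and 3049 to 5573 CPM in control skin, with control 2 the highest. Of these 8, 1 was lower at an unadjusted p under 0.05 and 0 higher. It was Mrap, the melanocortin receptor accessory protein of fat cells, at 13.9, 20.3, 19.2 and 14.7 FPKM in cKO mice and 25.7, 28.5, 28.2 and 23.9 FPKM in control mice, which did not overlap. The log2 fold change of Mrap was -0.83 ± 0.21 (edgeR p of 0.00276, adjusted p = 0.498), and -0.44 ± 0.14 with the length trend taken out. In that length fit 2 markers were higher, Car3 (0.42 ± 0.16, edgeR p of 0.0237) and Sncg (0.42 ± 0.18, edgeR p of 0.0428), and 1 lower, Mrap, whereas Car3 and Sncg gave 0.15 ± 0.20 and -0.09 ± 0.18 without it. Sebaceous gland genes, whose cells also make Scd1, Elovl6 and Cidea, summed to 1931 to 3737 CPM in cKO and 1976 to 3416 CPM in control skin, and were highest in cKO 1. Of 8 such genes Scd3 was higher (1.14 ± 0.42) and Dgat2l6 lower (-0.99 ± 0.41) at an unadjusted p under 0.05. Dgat2l6 gave -0.49 ± 0.28 without control 2 and did not reach that p with the block. Skeletal muscle genes, 12 of 12 detected, summed to 16055 to 28384 CPM and 19541 to 30705 CPM, with Pvalb alone under that p (-0.76 ± 0.31). Pvalb gave -0.34 ± 0.14 without control 2 and -0.20 ± 0.15 with the length trend taken out. With the block 2 of the 12 were higher, Myh1 (0.69 ± 0.18) and Myh2 (0.53 ± 0.20), and 0 lower. With the block and the length trend together these gave 0.31 ± 0.23 (edgeR p of 0.223) and 0.14 ± 0.15 (edgeR p of 0.393). Without cKO 2, 1 of the 12 was higher and 0 lower, against 5.47% of all genes in both directions. Hair follicle genes summed to 3459 CPM in cKO 2 and 37 to 484 CPM in the other 7 libraries, with 6 of 7 at an unadjusted p under 0.05 (Krt71, Krt27, Krt25, Tchh, Msx2 and Hoxc13). Krt71 gave 3.17 ± 1.25. Without cKO 2, 0 of the 7 reached that p, and their values were 0.17 to 0.97, with Krt71 the highest. Neutrophil genes summed to 90 to 202 CPM in cKO and 201 to 595 CPM in control skin, and of 6 such genes 3 were lower and 0 higher at an unadjusted p under 0.05, S100a8 at -2.10 ± 0.55, S100a9 at -2.09 ± 0.56 and Cxcr2 at -0.96 ± 0.27 (-1.33, -1.34 and -1.01 with the length trend taken out). The other 3 gave -0.92 ± 0.43 (Retnlg, edgeR p of 0.06), -0.51 ± 0.28 (Csf3r, edgeR p of 0.1) and -0.0022 ± 0.37 (Mmp9), and Csf3r reached that p with the block, with the length trend taken out and without control 2, where 4 of the 6 were lower. Retnlg, a transcript of 0.56 kb, gave -0.32 ± 0.25 without control 2 and -0.19 ± 0.28 with the length trend taken out. Of the macrophage and the fibroblast lists, 6 genes each, 1 had an unadjusted p under 0.05, C1qb at -0.59 ± 0.25 and Col1a1 at 1.10 ± 0.39. C1qb gave -0.38 ± 0.20 without control 2 and -0.14 ± 0.18 with the length trend taken out. No epidermal or endothelial gene did, of 8 and 6, and the lowest p of each list belonged to Trp63 (0.38 ± 0.17) and Egfl7 (-0.33 ± 0.17), which gave 0.16 ± 0.13 and -0.03 ± 0.18 with the length trend taken out. With the block 2 endothelial genes were higher, Cdh5 (0.44 ± 0.16) and Kdr (0.60 ± 0.20). These gave 0.16 ± 0.18 and 0.25 ± 0.19 without control 2, and 0.27 ± 0.092 and 0.23 ± 0.093 with the block and the length trend together. The part of these other cells in the values of the set was not tested.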

How the data were processed

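Skin RNA was purified with oligo(dT) beads and read as single-end 50-base reads on a DNBseq platform. Low-quality reads were removed by the authors with SOAPnuke, and HISAT is named as aligner in the submitters' processing notes. The program and strand setting used for counting are not given in the sources used here. The deposited table holds estimated counts, of which 69.0% of nonzero values are not whole, and FPKM values, made per library without pooling. It also holds 51 columns of the authors' own comparisons, 40 of group means and 16 of other per-library values, which were not used.

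Estimated counts were rounded, and 17124 genes with at least 10 counts over the 8 libraries entered the edgeR (4.0.16) quasi-likelihood test with TMM factors in R 4.3.3, adjusted by Benjamini-Hochberg. Alternatives were DESeq2 (1.42.0), limma (3.58.1) on log2(FPKM + 1) and log2(FPKM + 0.1) with and without a mean FPKM filter of 0.1, other scalings and filters, each library left out, and the replicate block. The length alternative subtracted a spline (5 degrees of freedom) of log2 CPM on transcript length, fitted per library over genes of mean count 50 or more. Transcript length came from the ratio of deposited counts to FPKM. The edgeR (also with the block and the length term), DESeq2 and limma tests were tested on simulated data. FPKM of single genes was compared by an exact permutation test. Same-numbered libraries of the 2 genotypes, paired by their titles (C1 with F1 and so on) and not by animal, deviated together (r of 0.323, 0.275, 0.176 and 0.108; other pairs ran from -0.407 to 0.32, -0.0672 on average), so blocked values are printed where they move a count by over 1.5 times.

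All 35 genes are named. Of other genes, Tbx20, Npr1, Npr2, Npr3 and Prkg1, the gene of lowest p in each list, and any list gene with an unadjusted p under 0.05 in the edgeR test of all 8 libraries, without block or length term, were named. Genes given only for another fit were chosen after their values were seen. The genes and lists were chosen with earlier results of these data known. Coordinates and promoter windows are from RefSeq on GRCm38.p6, where 35 of 35 gene identifiers matched. The table places Slc2a4 on an unplaced contig. Counts of estimated reads carry counting error, which at these depths leaves 3 counts, 0.1509 to 0.1868 CPM, as the limit that a count of 0 allows.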

Additional observations from a re-analysis of the deposited data

Results flagged for a closer look

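In each genotype, a library far from the other 3 was looked for in all 35 genes by Dixon's test, 70 groups of 4 in all, and 5 were found where chance gives about 3.5. Control 2 was low for Lpl (91.88 FPKM against 196.95 to 209.72 in the other controls) and Dgat2 (70.57 against 104.27 to 106.63), and cKO 3 was high for Lep (57.85 against 36.85 to 38.52) and Scd1 (1653.04 against 1203.35 to 1257.21). Ucp1 was listed at 0.04 FPKM in control 2, from 1 count, and at 0 in the other controls. With the other 3 values equal, Dixon's ratio is at its maximum for any other value, so this listing says nothing of a library. Control 2 also had the lowest values of most long transcripts in the set, and cKO 3 held the highest FPKM of all mice for 15 of 34 genes. The cause was not tested.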

How the results depend on the processing

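No gene of the set was called at an adjusted p under 0.05 in any alternative, and the replicate block changed no adjusted call. It moved the counts of unadjusted p over 1.5 times in the set and in the lists where its values are printed. The number of the 34 genes with an unadjusted p under 0.05 was 2, with 8.36% of all genes. It was 4 with the replicate block (10.06%), 3 with the block and length offset (10.46%), 3 with DESeq2 (11.41%), 1 with total count scaling (6.12%) and 1 with limma on log2(FPKM + 0.1) (5.80%). With a library left out it was 1 to 4, at 1 without cKO 1, cKO 4, control 2 or control 3 (5.70% to 7.69%), 3 without control 1 (14.14%) and 4 without control 4 (13.58%). Over all genes, adjusted calls numbered 0 in edgeR and 10 in DESeq2. Genes of the set whose genotypes did not overlap numbered 1 in FPKM (7.37% of all genes, both directions) and 2 in log2 CPM without the length trend (5.31%), an alternative chosen after seeing the data. With a library left out there were 1 to 3, at 3 without cKO 2 (16.3%) or control 1 (16%) and 2 without cKO 1 (13%), control 2 (8.23%) or control 4 (16.5%).

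Of 680 alternative values for 34 genes, 622 kept their direction, 58 were of the opposite sign, and 22 genes never turned. With the length trend taken out, values that turned were 0.35 for Adipoq, 0.20 for Cidec, 0.25 for Fabp4, 0.0634 for Pparg, -0.0068 for Fasn and -0.0634 for Me1, and with the block as well 0.34 for Adipoq, 0.13 for Cidec, 0.20 for Fabp4, 0.0527 for Pparg and -0.061 for Me1. The block alone turned Scd1 to 0.0244. Total count scaling gave 0.14 for Adipoq, 0.15 for Cidec, 0.0419 for Pparg, 0.0726 for Scd1 and 0.0052 for Dgat1. In limma, log2(FPKM + 1), filtered or not, gave 0.16 for Adipoq, 0.0933 for Cidec, 0.0331 for Pparg and 0.19 for Scd1, and log2(FPKM + 0.1) gave 0.16, 0.0935, 0.0336 and 0.19. Without control 2 the limma fit, also added later, gave 0.27 for Adipoq, 0.0189 for Cidec, 0.0312 for Fabp4 and 0.0659 for Pparg. Me1 was -0.011 with DESeq2 and with its size factors, and -0.0016 with filterByExpr. With each library left out, Adipoq ran from -0.18 to 0.23, Lep from -0.0773 to 0.19, Plin1 from -0.027 to 0.28, Plin5 from -0.28 to 0.34, Cidec from -0.24 to 0.15, Fabp4 from -0.62 to 0.0087, Pparg from -0.23 to 0.0317, Fasn from -0.0076 to 0.64, Scd1 from -0.22 to 0.15, Me1 from -0.049 to 0.0791 and Dgat2 from -0.0279 to 0.0695. The cause was not tested.

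With 4 libraries a genotype and SEs of 0.13 to 0.46 on the log2 scale, differences of the size seen in most of the set could not be told from 0.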
